A study of Mus musculus with 4 samples.

Results

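Semaphorins, plexins and neuropilins were followed in the cells of the mouse Achilles tendon, the tendon that joins the calf muscles to the heel bone. The members were taken by symbol: every gene named Sema3 to Sema7 with a letter a to g, every gene named Plxna, Plxnb, Plxnc or Plxnd with a digit, and Nrp1 and Nrp2. This gave 31 of the 33696 genes in the files, namely 7 secreted class 3 semaphorins, 13 other semaphorins, 9 plexins and 2 neuropilins, and the rule for them uses no measured value. All 31 were detected and all 31 passed the count filter of the class comparisons.

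The study used droplet single-cell RNA sequencing of Achilles tendon, with 4 libraries, 1 each for adult injury, adult control, neonate injury and neonate control. Adults were 6 to 8 weeks old and neonates were at postnatal day 3 (P3), and the labels name no strain, genotype or treatment other than the tendon injury. The labels give neither the type of injury, how long before harvest it was made, how many mice of which sex were used, nor whether the age is that at injury or at harvest. An injured library can thus come from older mice than its control, and with 1 library per group no difference between libraries has a replicate check.

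Semaphorins are guidance cues that were first known for steering growing axons and that also act on vessels, bone and immune cells. The secreted class 3 proteins bind neuropilins, which hold the ligand and pass the signal to plexins of the A and D types, whereas most of the membrane-bound semaphorins bind plexins directly. Plexins carry a GTPase-activating domain inside the cell and change the cytoskeleton and integrin adhesion; in the peripheral nerve and in vessels they are known for placing axons, Schwann cells and endothelial sprouts.

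Cells were assigned to classes by a gate on marker genes, none of which is a member: glia (Schwann cells, by Sox10, Cdh19 and others), vascular endothelium (Pecam1, Cdh5), lymphatic endothelium (Prox1, Flt4), mural cells, which are pericytes and vascular smooth muscle (Rgs5, Notch3), tenocytes (Tnmd, Scx) and fibroblasts (Pdgfra, Dcn, with at most 1 of 8 tenocyte markers). The libraries held 4440 cells in adult injury, 5792 in adult control, 12941 in neonate injury and 9521 in neonate control, with median depths of 5541 to 10333 UMIs (unique molecular identifiers, each a counted RNA molecule), and the gates took 35.8% to 70.9% of them. Between 0.570% and 0.701% of the barcodes of a library occurred in another library. For each library and class the UMIs of all its cells were added up, and a gene's level is its share of that sum, scaled to 1e+06 UMIs (CPM). Sums of fewer than 20 cells were not used, which left out adult injury glia (10 cells) and neonate control lymphatic endothelium (19 cells). Adult control glia rest on 65 cells and adult injury lymphatic endothelium on 34 cells. As the gates require, tenocyte markers summed to 6233 to 19904 CPM in tenocytes and 132 to 282 CPM in fibroblasts. Among fibroblasts, 91.4% of adult injury cells, 95.4% of adult control cells, 72.4% of neonate injury cells and 0% of neonate control cells had Xist and no Y-linked UMIs, so sex cannot be told apart from age or injury in comparisons with neonate control; Plxna3 and Plxnb3 lie on the X chromosome.

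The start regions of the member with the largest fold in each class comparison below that has an entry are printed here, in the order glia, vascular endothelium, mural cells and tenocytes; Sema3g was also high in glia, and Sema3a had its highest median in lymphatic endothelium. They come from RefSeq on GRCm38.p6, a build other than that of the files, and run from 250 bases before to 50 bases after the annotated start, 5′ to 3′ on the gene's strand. Entries were found for 26 of the 31 members. Capitals mark every match, on either strand, to ACAAAG (a SOX-type motif), CGGAAG or AGGAAG (ETS-type motifs that share their last 5 letters) or CANNTG (the E-box). The name of each comes before its sequence.

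Plxnb3, chrX:73756853-73757152, plus strand: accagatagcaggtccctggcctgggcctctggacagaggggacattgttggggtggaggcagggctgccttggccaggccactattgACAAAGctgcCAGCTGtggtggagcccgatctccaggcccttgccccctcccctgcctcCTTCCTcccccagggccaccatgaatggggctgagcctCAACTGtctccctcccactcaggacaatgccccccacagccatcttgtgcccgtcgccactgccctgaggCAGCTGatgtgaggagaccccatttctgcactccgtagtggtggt

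Sema3g, chr14:31217623-31217922, plus strand: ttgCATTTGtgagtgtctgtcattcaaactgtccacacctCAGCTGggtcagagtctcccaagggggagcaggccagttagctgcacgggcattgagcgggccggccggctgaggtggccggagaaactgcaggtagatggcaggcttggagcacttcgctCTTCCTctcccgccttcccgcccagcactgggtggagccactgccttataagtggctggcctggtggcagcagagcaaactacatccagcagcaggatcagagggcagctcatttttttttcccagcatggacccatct

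Sema5b, chr16:35541112-35541411, plus strand: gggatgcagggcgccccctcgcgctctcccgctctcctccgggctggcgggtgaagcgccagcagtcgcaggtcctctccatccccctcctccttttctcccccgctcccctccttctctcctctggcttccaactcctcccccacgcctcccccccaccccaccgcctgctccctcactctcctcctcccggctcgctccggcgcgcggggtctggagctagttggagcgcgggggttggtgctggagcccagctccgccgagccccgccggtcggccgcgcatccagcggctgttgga

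Sema3a, chr5:13396534-13396833, plus strand: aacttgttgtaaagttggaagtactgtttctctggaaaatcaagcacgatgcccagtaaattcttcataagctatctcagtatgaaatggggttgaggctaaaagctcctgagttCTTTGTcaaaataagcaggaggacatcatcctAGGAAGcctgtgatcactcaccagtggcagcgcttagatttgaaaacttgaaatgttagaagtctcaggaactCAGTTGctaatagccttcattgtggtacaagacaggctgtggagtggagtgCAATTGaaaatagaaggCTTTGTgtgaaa

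ACAAAG was present in 18.7% of all 32851 such windows in the table, CGGAAG in 16.9%, AGGAAG in 35.4% and CANNTG in 72.3%. The Plxnb3 window held 1 ACAAAG, 1 AGGAAG and 3 CANNTG matches, the Sema3g window 1 AGGAAG and 2 CANNTG matches, and the Sema3a window 2 ACAAAG, 1 AGGAAG and 2 CANNTG matches. None of these letters occurred in the Sema5b window. These are counts of letters in these windows and nothing more.

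Each member was placed by the class in which its median level was highest. By the median over libraries, 11 members were highest in glia, 7 in lymphatic endothelium, 6 in vascular endothelium, 3 in mural cells, 3 in fibroblasts and 1 in tenocytes. For 12 of the 31 members the libraries of the highest class did not overlap those of the class with the next median. In glia these were Sema3b, Sema3e, Sema6d and Plxnb3, and in vascular endothelium Sema7a, Plxna2 and Nrp1. The others were Sema3d, Sema6a and Plxna4 in lymphatic endothelium, Sema5b in mural cells and Sema3c in fibroblasts. Sema3e in adult control fibroblasts, at 134 CPM, nevertheless lay above every glial library (105 to 128 CPM). The shares of all genes that meet these rules were not computed, so these counts are not set against a background. Glial medians lack adult injury and lymphatic medians lack neonate control. Some placings were near ties: Sema4b had a median of 13.1 CPM in glia and 12.8 CPM in mural cells. Plxna1 had a median of 39.0 CPM in fibroblasts and 37.4 CPM in mural cells.

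**Figure D1:**
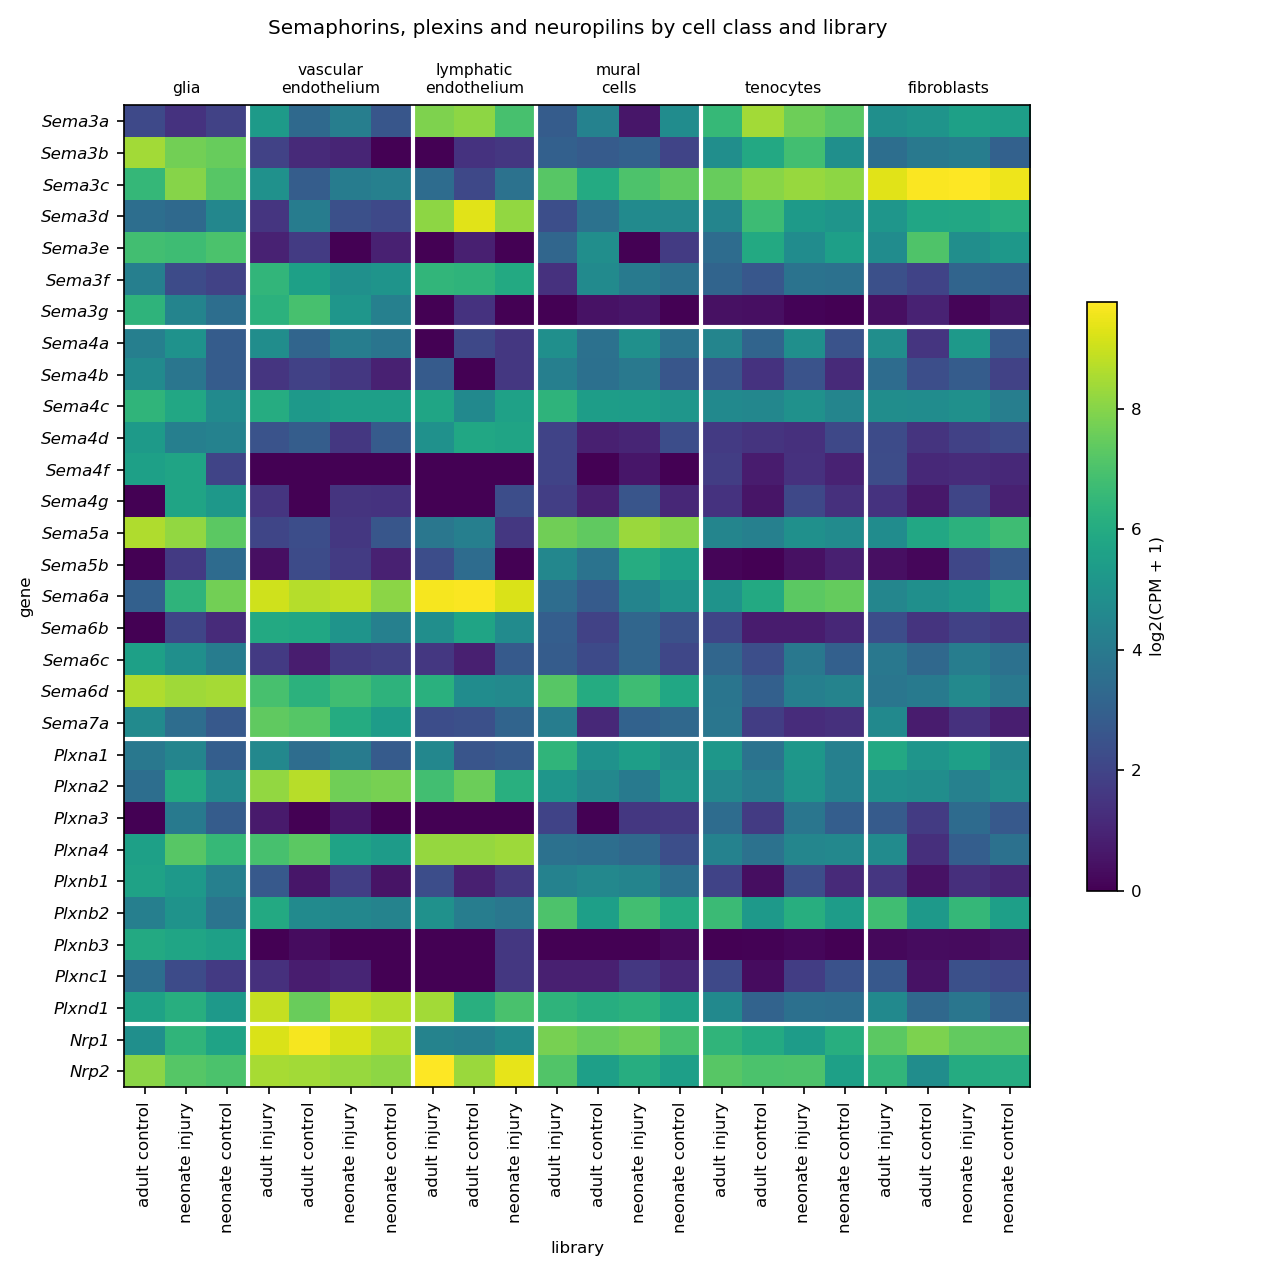
Level of the 31 members as log2(CPM + 1), with genes down the page and the libraries of each cell class across, left to right adult injury, adult control, neonate injury and neonate control where the sum was used. Colours are read along a row, between classes of 1 gene; Sema3c is brightest in fibroblasts, Sema6d in glia and Nrp1 in vascular endothelium.

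To ask which members differ between classes, each class was tested against fibroblasts over the 4 libraries with edgeR's quasi-likelihood test, with the library as a block and Benjamini-Hochberg adjustment over all 14991 genes tested. The libraries served as replicates of a class although they differ in age and injury. With the library as a block, the p-values rest on how class differences vary between these libraries. For each gene this spread was taken over all 22 sums of all classes, not over the compared classes alone. In glia 15 of the 31 members were higher and 6 lower, where 18.4% of all genes tested were called higher and 20.2% lower. Vascular endothelium had 12 members higher and 12 lower, against 22.8% and 24.3% of all genes. Mural cells had 7 higher and 6 lower, against 11.7% and 11.9% of all genes. Tenocytes had 2 higher and 3 lower, against 5.32% and 5.89% of all genes, so that their share was nearer to that of all genes. The median log2 fold change of the members was 1.01 in glia, 0.10 in vascular endothelium, 0.00 in mural cells and -0.10 in tenocytes, and that of all genes lay between -0.04 and 0.03.

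**Figure D2:**
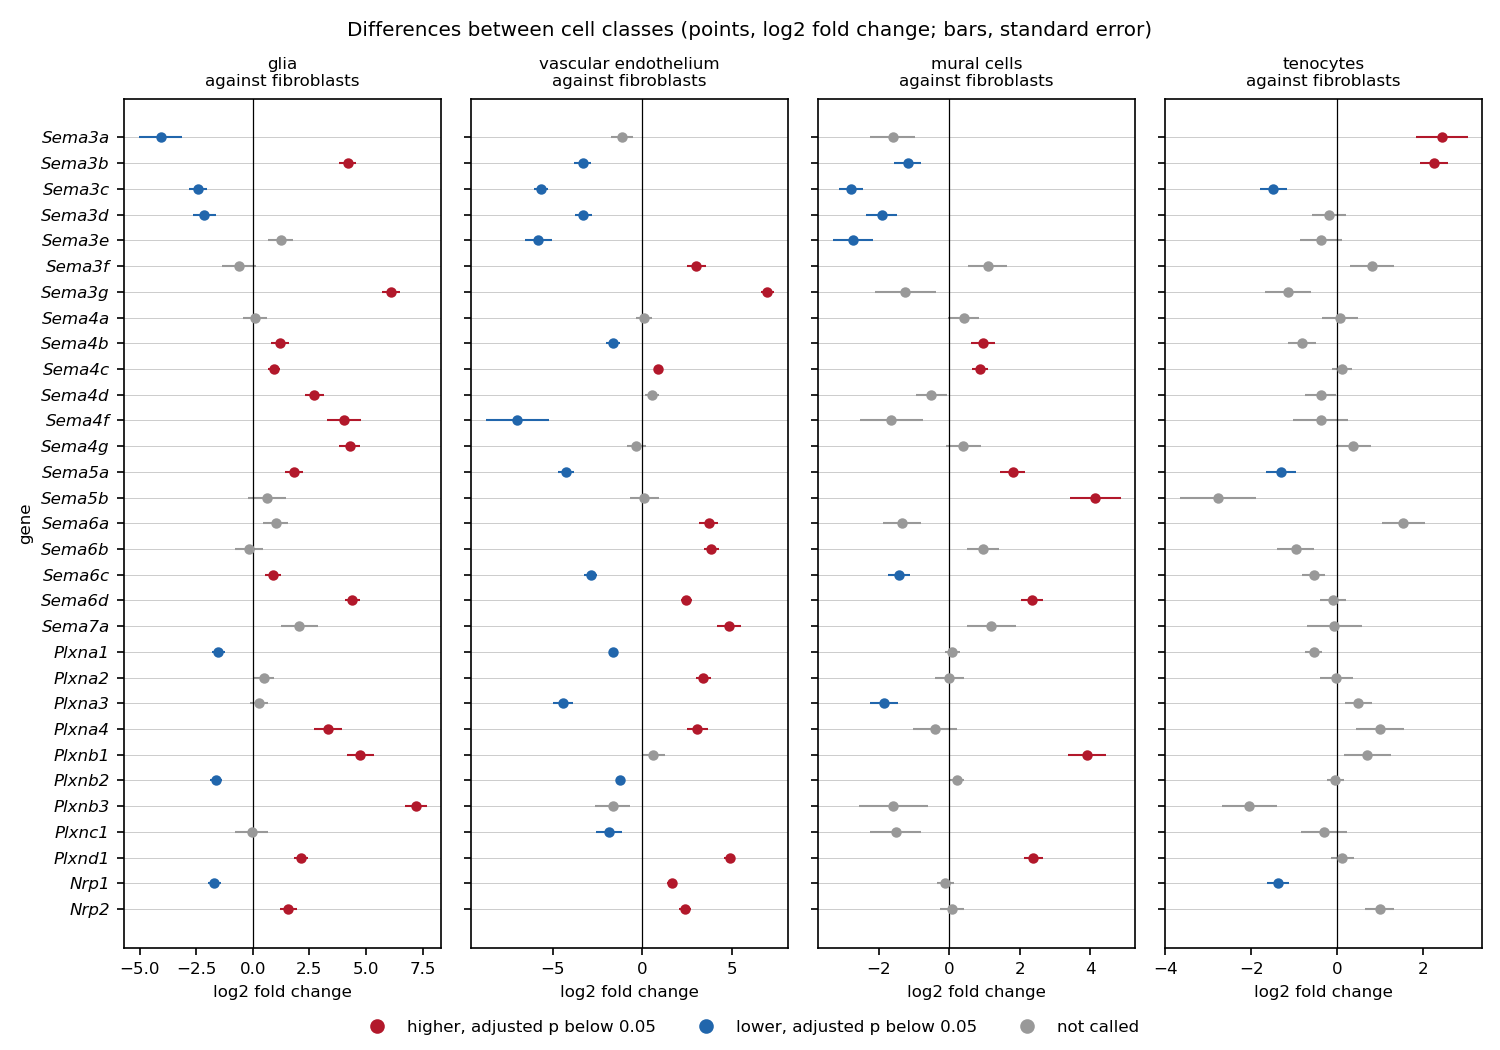
Log2 fold change of each member in glia, vascular endothelium, mural cells and tenocytes against fibroblasts. Points are edgeR estimates, coloured where the adjusted p was below 0.05, and bars are a standard error derived from the test's F statistic. In glia 15 points are called higher and 6 lower, and in tenocytes 2 are called higher and 3 lower.

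Among the class 3 semaphorins, the secreted ligands, the classes divided the genes between them. Sema3c, a ligand that binds both neuropilins and is known for its role in the cardiac outflow tract, was the fibroblast ligand. Tenocytes had 182 CPM of Sema3c in adult injury, 263 in adult control, 305 in neonate injury and 275 in neonate control, against 644, 851, 880 and 738 CPM in fibroblasts of these libraries, and the highest tenocyte library lay below the lowest fibroblast library. It was lower than in fibroblasts in all 4 classes tested, by -1.48 ± 0.32 in tenocytes (log2 fold change ± standard error, adjusted p = 0.00568), -2.42 ± 0.38 in glia (adjusted p = 9.47e-05), -2.79 ± 0.34 in mural cells (adjusted p = 2.15e-05) and -5.66 ± 0.40 in vascular endothelium (adjusted p = 7.09e-09). Without the neonate injury library the tenocyte difference was -1.51 with an adjusted p of 0.0838, and with Leiden clusters in place of the gates its adjusted p was 0.217.

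Sema3a, the ligand known for repelling axons through Nrp1, had its highest levels outside the vessels in tenocytes. Tenocytes had 93.3 CPM in adult injury, 339 in adult control, 194 in neonate injury and 154 in neonate control, against 28.3, 32.9, 45.9 and 43.3 CPM in fibroblasts of the same libraries. Each tenocyte library lay above each fibroblast library, with a log2 fold change of 2.44 ± 0.60 (adjusted p = 0.0133). The adjusted p was 0.0691 without the neonate injury library and 0.0675 without the adult control library. Glia had 3.52 CPM in adult control, 1.70 in neonate injury and 2.84 in neonate control, 21 UMIs in all, and Sema3a was lower there than in fibroblasts by -4.07 ± 0.96 (adjusted p = 0.00293).

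Sema3b, another secreted ligand of the neuropilins, was high in glia and second in tenocytes. Glia had 342 CPM in adult control, 209 in neonate injury and 183 in neonate control, tenocytes had 27.6 in adult injury, 58.3 in adult control, 111 in neonate injury and 28.4 in neonate control, and fibroblasts had 10.6, 14.4, 16.5 and 7.26 in these 4 libraries. Both classes lay above fibroblasts in every library, by 4.19 ± 0.38 in glia (adjusted p = 2.88e-07) and by 2.25 ± 0.33 in tenocytes (adjusted p = 0.000273). Vascular endothelium had at most 2.81 CPM, and Sema3b was lower there by -3.33 ± 0.49 (adjusted p = 2.84e-05). In mural cells it was lower by -1.18 ± 0.39 (adjusted p = 0.0371), with adjusted p-values of 0.0911, 0.0909 and 0.143 without the neonate control, the neonate injury and the adult control library.

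Sema3g, known as an endothelial semaphorin, was a gene of vascular endothelium and glia. Vascular endothelium had 77.2 CPM in adult injury, 121 in adult control, 33.8 in neonate injury and 18.4 in neonate control, and glia had 81.1 in adult control, 20.2 in neonate injury and 10.5 in neonate control. Fibroblasts had between 0.11 and 0.94 CPM, 20 UMIs in all, and tenocytes at most 0.37 CPM. The log2 fold change over fibroblasts was 6.95 ± 0.36 in vascular endothelium (adjusted p = 1.54e-10) and 6.10 ± 0.39 in glia (adjusted p = 3.89e-09). The Sema3g start region printed above held 1 AGGAAG and no ACAAAG.

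Sema3e, the ligand that binds Plxnd1 without a neuropilin, had 113 CPM in adult control glia, 105 in neonate injury glia and 128 in neonate control glia. Fibroblasts had 26.2 CPM in adult injury, 134 in adult control, 27.8 in neonate injury and 36.4 in neonate control, so that the adult control fibroblasts overlapped the glia. The difference of glia from fibroblasts, 1.23 ± 0.55, did not pass the test. Vascular endothelium, where Plxnd1 was highest, had 14 UMIs of Sema3e over the 4 libraries, a difference from fibroblasts of -5.79 ± 0.76 (adjusted p = 8.91e-06). In mural cells the difference was -2.73 ± 0.57 (adjusted p = 0.00244).

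Sema3f, known as a ligand of Nrp2, was an endothelial gene. Vascular endothelium had 85.1 CPM in adult injury, 45.7 in adult control, 29.1 in neonate injury and 32.5 in neonate control, against 4.23, 2.94, 7.94 and 7.16 CPM in fibroblasts of these libraries, and the groups did not overlap. The log2 fold change was 3.00 ± 0.54 (adjusted p = 0.000215). Under a stricter gate that allowed no marker of another class apart from fibroblasts it was 1.90, with an adjusted p of 0.29. That gate left fibroblast sums in neonate injury and adult control alone. Sema3d, a ligand with roles in the growth of axons and of the heart's vessels, was lower than in fibroblasts in vascular endothelium (-3.30 ± 0.48, adjusted p = 2.37e-05), in mural cells (-1.92 ± 0.44, adjusted p = 0.00422) and in glia (-2.14 ± 0.51, adjusted p = 0.00317). The glial difference had an adjusted p of 0.0637 without the neonate injury library. The plot of class 3 levels shows all 7 ligands by class.

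**Figure D3:**
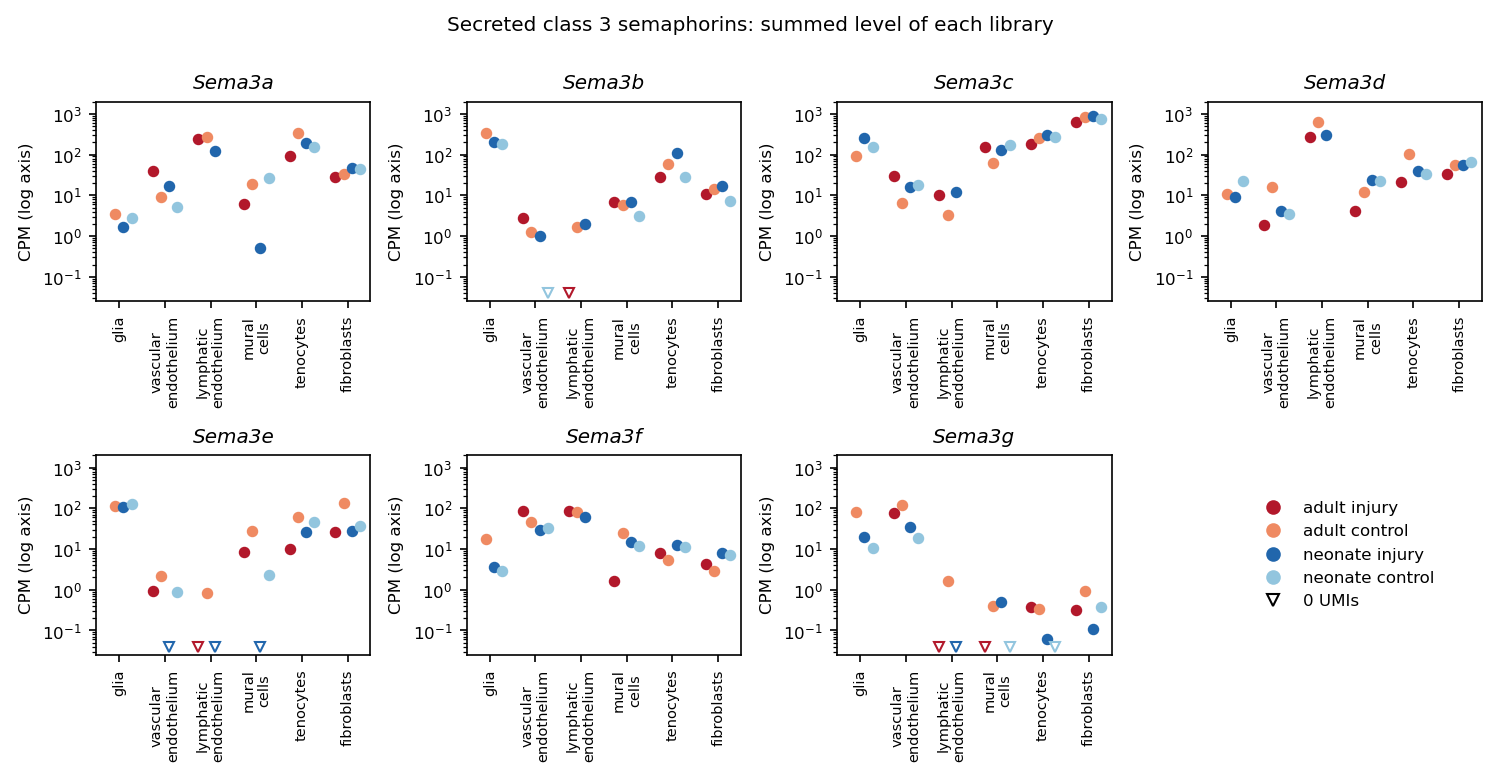
Level of the 7 class 3 semaphorins in CPM on a log axis, with cell classes across and 1 point per library; open triangles at the bottom mark sums with 0 UMIs. Sema3c is highest in fibroblasts, Sema3b in glia and Sema3d in lymphatic endothelium, and Sema3g stands high in vascular endothelium and glia. Sema3e has its highest median in glia, but its adult control fibroblast point lies above every glial point.

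The other semaphorins, which sit in the cell membrane, were called in all 4 classes. In glia 8 of these 13 were higher than in fibroblasts and 0 lower at the adjusted threshold by edgeR, while 9 of the 13 had an unadjusted p below 0.05 in either direction. Vascular endothelium had 5 higher and 4 lower, mural cells 5 higher and 1 lower, and tenocytes 0 higher and 1 lower, with 5 of 13 at an unadjusted p below 0.05. These counts stand against the shares of all genes given above and were not compared between classes. Sema6d, a ligand of Plxna1, was a glial gene, with 395 CPM in adult control, 338 in neonate injury and 352 in neonate control glia, against 14.8, 23.4 and 14.5 CPM in fibroblasts of these libraries and 13.1 CPM in adult injury fibroblasts. No fibroblast sum came near the glial range, and the log2 fold change was 4.40 ± 0.34 (adjusted p = 5.72e-08). Sema6d was also higher in vascular endothelium, by 2.45 ± 0.31 (adjusted p = 5.5e-06), and in mural cells, by 2.34 ± 0.31 (adjusted p = 4.73e-05).

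Class 4 genes made up much of the glial set. Sema4g had 51.8 CPM in neonate injury and 35.9 CPM in neonate control glia, but 0 UMIs in adult control glia, where 3 UMIs would be 10.6 CPM. Fibroblasts had 0.53 to 3.09 CPM of Sema4g, and its log2 fold change was 4.28 ± 0.47 (adjusted p = 1.89e-06), higher in 2 of 3 libraries. Sema4f had 45.8 CPM in adult control, 51.3 in neonate injury and 3.06 in neonate control glia, against 1.20 to 3.83 CPM in fibroblasts, so that only its neonate control value overlapped fibroblasts (4.03 ± 0.73, adjusted p = 0.000922). Sema4d, the Plxnb1 ligand also called CD100, had 38.8 CPM in adult control, 17.5 in neonate injury and 19.2 in neonate control glia, against 1.74 to 3.76 CPM in fibroblasts (2.72 ± 0.41, adjusted p = 4.71e-05). The 4 further calls in glia, those of Sema4b, Sema4c, Sema5a and Sema6c, had log2 fold changes from 0.89 to 1.82.

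Vascular endothelium carried Sema6a, Sema6b and Sema7a. Sema6a, a membrane ligand of Plxna2 and Plxna4, had 545 CPM in adult injury, 418 in adult control, 463 in neonate injury and 272 in neonate control endothelium, against 21.5, 28.6, 35.4 and 70.1 CPM in fibroblasts (3.69 ± 0.54, adjusted p = 2.88e-05). Sema7a, a semaphorin anchored in the membrane by a lipid and known to bind Plxnc1 and integrins, had 166, 148, 63.7 and 42.0 CPM in the endothelium of these libraries, against 24.2 CPM in adult injury fibroblasts and 0.67 to 1.60 CPM in the other 3 fibroblast sums (4.81 ± 0.67, adjusted p = 1.54e-05). For both genes the endothelial range lay wholly above that of fibroblasts. Sema6b had 18.4 to 61.0 CPM in endothelium and 1.74 to 3.91 CPM in fibroblasts (3.83 ± 0.41, adjusted p = 8.84e-07; 0.0643 under the gate with none of another class). Sema4f was at 0 UMIs in vascular endothelium of all 4 libraries, which with a floor of 3 counts over the group is at least 8.30-fold lower than in fibroblasts.

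Sema5a and Sema5b, the semaphorins with thrombospondin repeats, were both higher in mural cells than in fibroblasts, and Sema5a was also high in glia. Sema5b had 22.0 CPM in adult injury, 12.3 in adult control, 66.2 in neonate injury and 45.4 in neonate control mural cells, against 0.31, 0.13, 3.20 and 5.84 CPM in fibroblasts. Every mural sum lay above every fibroblast sum, with a log2 fold change of 4.15 ± 0.71 (adjusted p = 0.000507). Sema5a had 201, 165, 320 and 258 CPM in mural cells of these 4 libraries and 25.8, 58.0, 76.3 and 108 CPM in fibroblasts (1.79 ± 0.35, adjusted p = 0.00143). Glia had 391 CPM of Sema5a in adult control, 290 in neonate injury and 159 in neonate control, a range that overlapped that of mural cells (1.82 ± 0.38 against fibroblasts, adjusted p = 0.0011). In vascular endothelium Sema5a was lower than in fibroblasts, at 1.99 to 5.14 CPM (-4.27 ± 0.45, adjusted p = 7.22e-07; -0.9985 and adjusted p = 0.101 with Leiden clusters), and in tenocytes it was lower at 18.1 to 29.0 CPM (-1.31 ± 0.35, adjusted p = 0.0214). The tenocyte call had an adjusted p of 0.146 without the neonate control library and 0.0699 without the neonate injury library.

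Further calls were those of Sema6c, Sema4b and Sema4c. Sema6c was lower in vascular endothelium, by -2.88 ± 0.36 (adjusted p = 4.27e-06), and in mural cells, by -1.42 ± 0.32 (adjusted p = 0.00355). Sema4b was lower in vascular endothelium (-1.64 ± 0.40, adjusted p = 0.00285; -0.83 and 0.0555 with Leiden clusters, 0.0526 without the block) and higher in mural cells (0.96 ± 0.33, adjusted p = 0.0459). The mural call of Sema4b had adjusted p-values of 0.167, 0.198 and 0.0725 without the neonate control, neonate injury and adult injury library. Sema4c, known as a ligand of Plxnb2, was 0.88 to 0.93 higher on the log2 scale in glia, vascular endothelium and mural cells. Its mural call was lost without the block. Sema4a, known for its part in immune cells, was called in none of the 4 comparisons, with log2 fold changes from 0.06 to 0.41.

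Among the plexins, the receptors, Plxnb3 was a glial gene. It had 59.9 CPM in adult control, 53.0 in neonate injury and 46.8 in neonate control glia, 449 UMIs in all, whereas fibroblasts had 15 UMIs over the 4 libraries and 0.16 to 0.37 CPM. The log2 fold change was 7.21 ± 0.47 (adjusted p = 5.22e-09), the largest of the 31 members in glia. Plxnb1, the receptor of Sema4d, had 49.3 CPM in adult control, 37.5 in neonate injury and 18.4 in neonate control glia, and 19.1, 23.0, 20.4 and 11.3 CPM in mural cells of the adult injury, adult control, neonate injury and neonate control libraries. Fibroblasts had 0.40 to 1.96 CPM, and Plxnb1 was higher in glia by 4.75 ± 0.59 (adjusted p = 8.66e-06) and in mural cells by 3.90 ± 0.54 (adjusted p = 6.99e-05).

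Plxnd1, the receptor of Sema3e and known for guiding vessels, was the leading plexin of vascular endothelium by fold change. It had 483 CPM in adult injury, 184 in adult control, 482 in neonate injury and 399 in neonate control endothelium, against 23.9, 8.82, 13.3 and 7.74 CPM in fibroblasts (4.86 ± 0.31, adjusted p = 1.62e-09). It was also higher in mural cells (2.39 ± 0.28, adjusted p = 1.29e-05) and in glia (2.14 ± 0.31, adjusted p = 4.27e-05). Plxna2 had 199 to 424 CPM in vascular endothelium and 18.5 to 29.1 CPM in fibroblasts (3.38 ± 0.42, adjusted p = 4.97e-06). Plxna4 had 121, 160, 49.7 and 39.8 CPM in vascular endothelium of adult injury, adult control, neonate injury and neonate control, and 45.8, 148 and 93.4 CPM in glia of the last 3 of these, against 25.04, 1.47, 6.61 and 11.4 CPM in fibroblasts. It was higher than in fibroblasts by 3.05 ± 0.59 in endothelium (adjusted p = 0.000406) and by 3.33 ± 0.63 in glia (adjusted p = 0.000503).

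Plxna1 and Plxnb2 followed the opposite course. Plxnb2, the receptor of Sema4c, had 109, 37.6, 91.4 and 45.6 CPM in fibroblasts of adult injury, adult control, neonate injury and neonate control, and was lower in glia (-1.64 ± 0.26, adjusted p = 9.37e-05) and vascular endothelium (-1.22 ± 0.21, adjusted p = 0.00014). Plxna1, the receptor of Sema6d, was lower by -1.52 ± 0.27 in glia (adjusted p = 0.000265) and by -1.66 ± 0.22 in vascular endothelium (adjusted p = 8.79e-06). Plxna3 had 4 UMIs in vascular endothelium in all (-4.43 ± 0.54, adjusted p = 6.36e-06) and was lower in mural cells (-1.84 ± 0.40, adjusted p = 0.00368; 0.0732 without neonate injury). Plxnc1, the receptor of Sema7a, was lower in vascular endothelium by -1.86 ± 0.73 (adjusted p = 0.0455), with adjusted p-values of 0.132, 0.264 and 0.158 without neonate control, neonate injury and adult injury, and with doublets kept the difference was -0.27 (adjusted p = 0.767). Under the gate with none of another class the vascular calls of Plxna1 (adjusted p = 0.0604) and Plxnb2 (adjusted p = 0.124) were lost. No plexin was called in tenocytes (0 of 9 by edgeR), where 2 of the 9 had an unadjusted p below 0.05.

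The neuropilins separated the classes further. Nrp1, the co-receptor of Sema3a and of vascular endothelial growth factor, had 602 CPM in adult injury, 812 in adult control, 585 in neonate injury and 400 in neonate control vascular endothelium, against 160, 233, 173 and 161 CPM in fibroblasts. It was higher in endothelium by 1.62 ± 0.25 (adjusted p = 4.72e-05), and lower in glia, at 28.2 CPM in adult control, 83.5 in neonate injury and 50.5 in neonate control (-1.70 ± 0.30, adjusted p = 0.000211). Tenocytes, at 84.1, 62.9, 41.8 and 69.3 CPM in adult injury, adult control, neonate injury and neonate control, lay below all fibroblast sums (-1.37 ± 0.25, adjusted p = 0.00162). In tenocytes the neuropilin of Sema3a was thus lower and Sema3a itself higher than in fibroblasts. Nrp2, the co-receptor of Sema3f and of the lymphatic growth factor Vegfc, was higher in vascular endothelium (277 to 365 CPM against 27.1 to 85.9 CPM in fibroblasts; 2.37 ± 0.35, adjusted p = 2.7e-05) and in glia (129 to 268 CPM; 1.56 ± 0.37, adjusted p = 0.00299).

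Leaving out the library block had 1 effect on these counts beyond 1.5 times. In mural cells 6 members, 5 higher and 1 lower, were called without the block, against 13 with it, and the adjusted p was then 0.437 for Sema4b, 0.0713 for Sema6c, 0.198 for Plxna3, 0.0609 for Sema3e, 0.0816 for Sema3d and 0.175 for Sema3b. The mural call of Sema4c was lost as well. Among the named members of the other classes, calls were lost for Sema3d in glia (0.0582) and Sema5a in tenocytes (0.0703). In vascular endothelium they were lost for Sema4b (0.0526) and Plxnc1 (0.0757). Leaving out the neonate injury library left 2 of the 5 calls in tenocytes. A gate that asked for 1 more marker and none of another class apart from fibroblasts left 14 of the 24 calls in vascular endothelium. It left too few cells for the other 3 comparisons. Fibroblast sums remained only in neonate injury (88 cells) and adult control (34 cells), so fewer libraries were compared, and the effect of the gate itself was not tested.

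Blood and lymph vessels could be compared in 3 libraries, a comparison that was added after the data had been examined. Of the 31 members, 3 were higher in lymphatic than in vascular endothelium and 6 lower, where 5.72% of all genes were called higher and 8.12% lower. The ligands Sema3d and Sema3a were on the lymphatic side. Sema3d had 274 CPM in adult injury, 642 in adult control and 295 in neonate injury lymphatic endothelium, against 1.88, 16.2 and 4.23 CPM in vascular endothelium of these libraries (5.95 ± 0.53, adjusted p = 9.76e-07). Sema3a had 238, 275 and 120 CPM in lymphatic endothelium, against 39.1, 9.10 and 17.4 CPM in vascular endothelium (3.33 ± 0.69, adjusted p = 0.00306). Both genes stood above their vascular values in 3 of 3 libraries. Sema4d had 29.8, 56.0 and 51.2 CPM in lymphatic endothelium, against 4.69, 6.39 and 1.99 CPM in vascular endothelium (3.27 ± 0.42, adjusted p = 3.55e-05). Sema6a had 600 to 839 CPM in lymphatic endothelium and 272 to 545 CPM in all vascular sums. Plxna4 had 298 to 325 CPM and 39.8 to 160 CPM there. Neither Sema6a nor Plxna4 passed this test.

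Nrp1 and Sema3g were on the vascular side. Nrp1 had 19.8 CPM in adult injury, 18.4 in adult control and 25.6 in neonate injury lymphatic endothelium, 45 UMIs in all, against 602, 812 and 585 CPM in vascular endothelium (-5.09 ± 0.37, adjusted p = 7.35e-08). Sema3g had 2 UMIs over the 3 lymphatic sums (-6.77 ± 0.60, adjusted p = 8.08e-07), and Sema7a had 3.97 to 7.87 CPM there (-4.91 ± 0.99, adjusted p = 0.00238). Nrp2 had 857 CPM in adult injury, 319 in adult control and 679 in neonate injury lymphatic endothelium, and its difference from vascular endothelium, 0.50 ± 0.36, did not pass the test. Plxnd1 was lower in lymphatic endothelium (-1.63 ± 0.31, adjusted p = 0.00142; 0.0751 without neonate injury), as were Sema6d (-1.51 ± 0.38, adjusted p = 0.0109; 0.12 without neonate injury and 0.085 without adult control) and Sema4a (-3.06 ± 0.92, adjusted p = 0.0337). The Sema4a call rested on 5 lymphatic UMIs, and its adjusted p was 0.0884, 0.139 and 0.218 without neonate control, neonate injury and adult injury, and 0.494 under the gate with at most 1 marker of another class. Without the block, or without the neonate injury library, 6 of the members were called, 3 higher and 3 lower; the adjusted p without the block was 0.0501 for Sema7a, 0.127 for Plxnd1 and 0.154 for Sema4a.

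**Figure D4:**
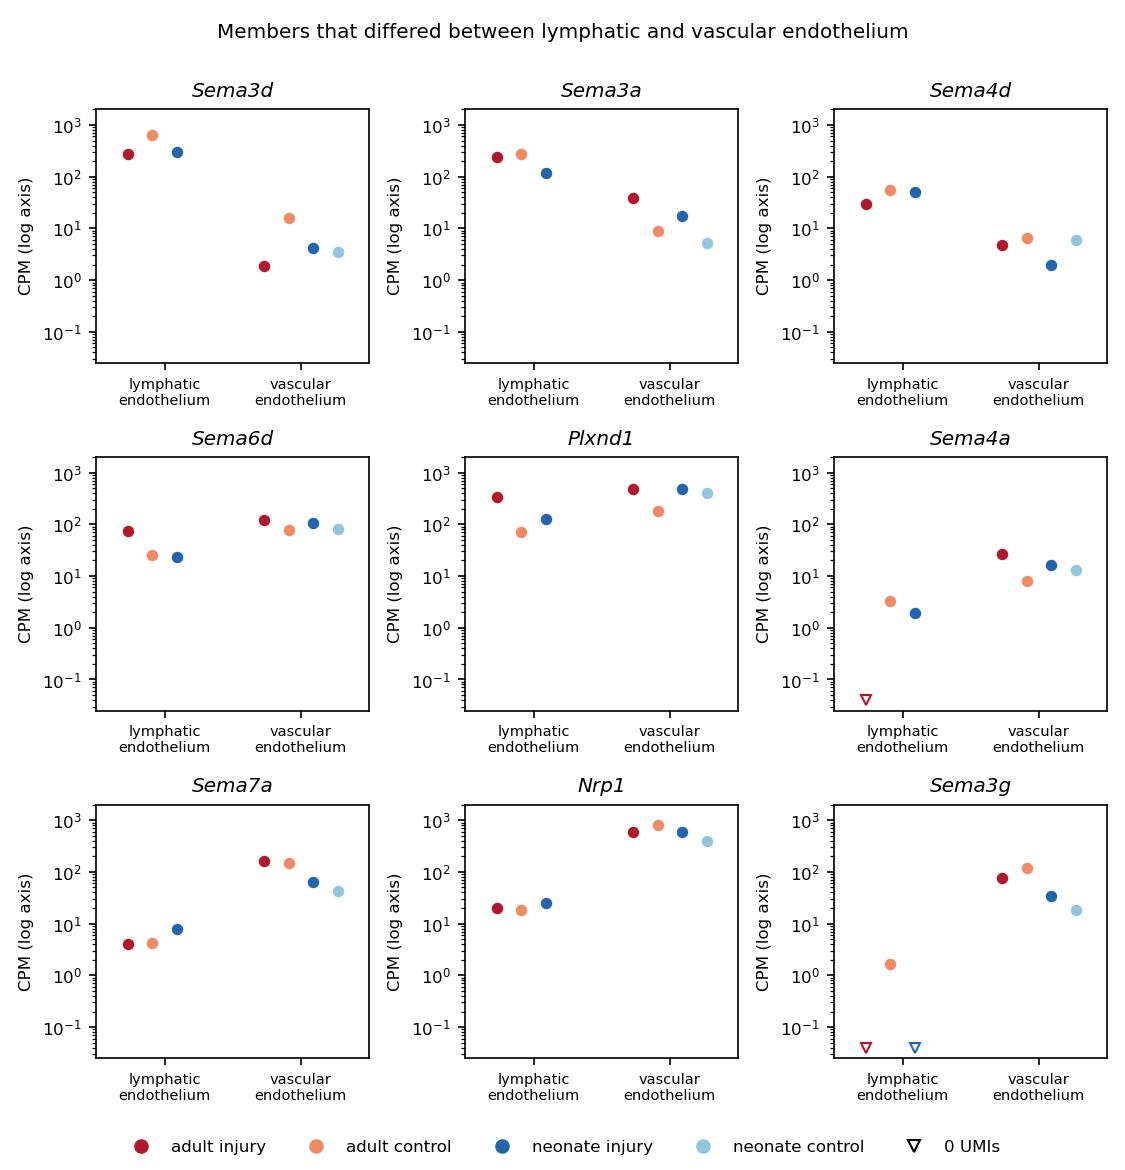
Level in CPM, on a log axis, of the 9 members called between lymphatic (left) and vascular (right) endothelium, with 1 point per library and open triangles for 0 UMIs. Sema3d, Sema3a and Sema4d lie higher in lymphatic endothelium, and Nrp1 lies at 18.4 to 25.6 CPM there against 400 CPM or more in vascular endothelium.

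Injury was compared with control at each age, and adult control with neonate control, within each class. With 1 library per group there was no test; each value is the log2 of the ratio of CPM after 0.5 counts were added to each library, the range after it is the exact 95% interval, which covers counting error alone, and a member is counted as past 2-fold only where the pair of libraries held at least 50 UMIs of it. The adult injury comparison and the age comparison share the adult control library, and the neonate injury comparison and the age comparison share the neonate control library. Marker genes of other classes moved with injury and with age. Macrophage markers summed to 94.2 CPM in adult injury fibroblasts, 11.9 in adult control, 41.1 in neonate injury and 18.9 in neonate control, while cells gated as macrophages, which entered no test, had 14011 to 21058 CPM. Fibroblast markers summed to 6332 CPM in adult injury vascular endothelium against 898 CPM in adult control, and to 33349 CPM in adult injury mural cells against 3203 CPM in adult control. In mural cells of neonates they summed to 30761 CPM in neonate injury and 15114 CPM in neonate control. Median depth was 25162.5 UMIs in adult injury tenocytes and 11424 UMIs in adult control tenocytes. The part of these differences in the ratios was not tested.

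**Figure D5:**
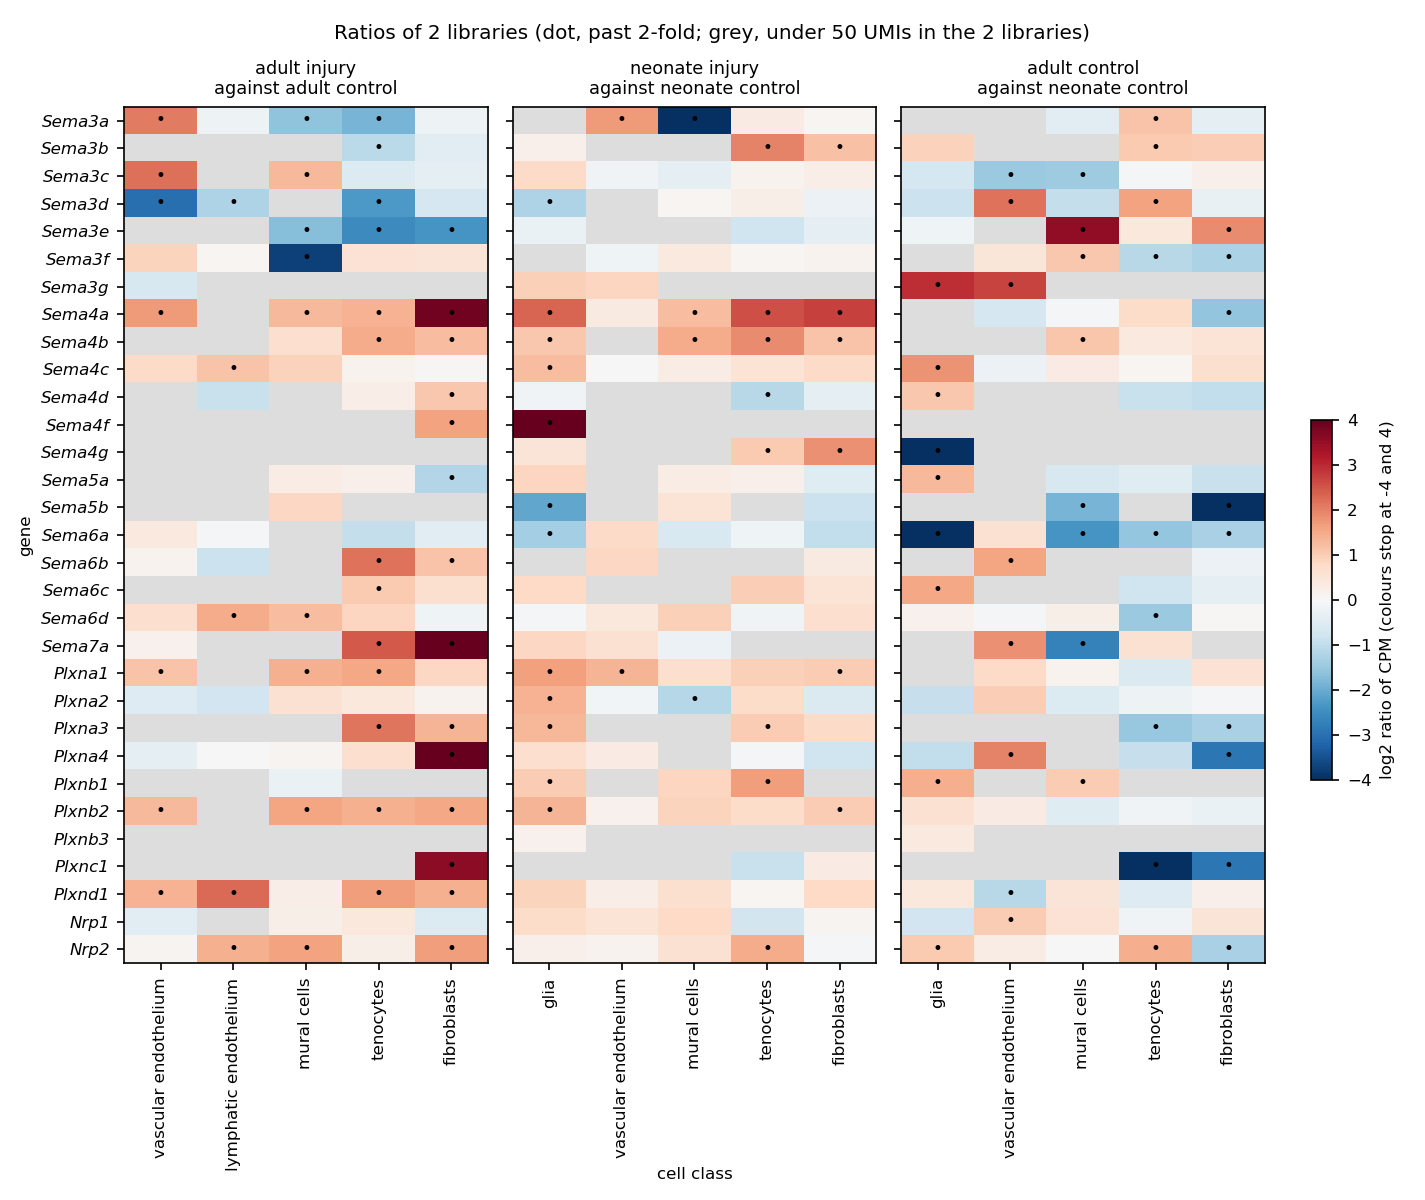
Log2 ratio of CPM between 2 libraries for each member (down) and cell class (across), in adult injury against adult control (left), neonate injury against neonate control (middle) and adult control against neonate control (right). Red is higher and blue lower in the library named first, dots mark members past 2-fold, and grey marks members under 50 UMIs; in adult injury fibroblasts 12 members are past 2-fold higher and 2 lower.

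In adult injury fibroblasts 12 members were past 2-fold higher and 2 lower than in adult control, of 26 with enough UMIs, where 14.1% of all genes were past 2-fold higher and 11.7% lower. The largest ratio was that of Sema7a, with 24.2 CPM (309 UMIs) in adult injury against 0.67 CPM (5 UMIs) in adult control, a log2 ratio of 5.04 (3.94 to 6.81). Plxna4 had 25.04 CPM in adult injury and 1.47 CPM in adult control (4.03, 3.23 to 5.11), and Sema4a 27.9 CPM and 1.87 CPM (3.85, 3.13 to 4.78). Cells gated as macrophages in the adult injury library had 7.49 CPM of Sema7a, 19.5 CPM of Plxna4 and 102 CPM of Sema4a. Macrophage markers summed to 14011 CPM in those cells, and their part in the fibroblast values was not tested. Nrp2 had 85.9 CPM in adult injury and 27.1 CPM in adult control fibroblasts (1.66, 1.45 to 1.89).

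Sema3e and Sema5a were the 2 members past 2-fold lower in adult injury fibroblasts. Sema3e had 26.2 CPM in adult injury and 134 CPM in adult control (-2.35, -2.53 to -2.17), and Sema5a 25.8 CPM and 58.0 CPM (-1.17, -1.38 to -0.96). With the gate that asked for 1 more marker and at most 1 of another class, the count in fibroblasts was 5 in place of 14, Sema3e was at -1.36 and Sema5a at -0.46. Sema3c, the main fibroblast ligand by class, was at 644 CPM in adult injury and 851 CPM in adult control.

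In adult injury tenocytes 9 members were past 2-fold higher and 4 lower than in adult control, of 24, where 15.4% of all genes were higher and 13.4% lower. The 4 that were lower are all class 3 ligands. Sema3e had 10.1 CPM in adult injury against 59.9 CPM in adult control (-2.56, -2.86 to -2.28), Sema3d 20.8 CPM against 102 CPM (-2.30, -2.50 to -2.10) and Sema3a 93.3 CPM against 339 CPM (-1.86, -1.96 to -1.77). Sema3b had 27.6 CPM in adult injury against 58.3 CPM in adult control (-1.08, -1.26 to -0.90), and with Leiden clusters its ratio turned to 0.67. The ratio of Sema3d was -0.95 and that of Sema3a -1.19 with Leiden clusters. On the receptor side Plxnd1 (24.2 CPM against 7.56 CPM; 1.68, 1.41 to 1.95), Plxna1 (35.3 CPM against 12.2 CPM; 1.54, 1.32 to 1.75) and Plxnb2 (101 CPM against 37.8 CPM; 1.43, 1.30 to 1.55) were higher. Sema4a had 20.7 CPM in adult injury and 7.82 CPM in adult control tenocytes (1.40, 1.13 to 1.68), but -2.27 under the gate with at most 1 marker of another class. The main gate held 396 adult injury tenocytes, that stricter gate 47 and the Leiden clusters 137. Adult control had 2266, 735 and 2299 tenocytes under these settings. Median depth in adult injury tenocytes was 11665 UMIs under the stricter gate and 12437 UMIs with Leiden clusters.

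In adult injury vascular endothelium 6 members were past 2-fold higher and 1 lower, of 18, where 9.35% of all genes were higher and 6.39% lower. Plxnd1 had 483 CPM in adult injury against 184 CPM in adult control (1.39, 1.27 to 1.52), and 0.54 under the gate with none of another class. Sema3c (30.0 CPM against 6.39 CPM; 2.21) and Sema3a (39.1 CPM against 9.10 CPM; 2.09) rested on few cells: 1 cell held 31 of the 96 UMIs of Sema3c and 1 cell 37 of the 125 UMIs of Sema3a in adult injury. Without that cell the ratios were 1.65 and 1.59. With doublets kept, Sema3c was at -0.052, and with Leiden clusters at 0.21. Sema4a had 26.9 CPM in adult injury against 8.11 CPM in adult control (1.72, 1.13 to 2.35), and macrophage markers summed to 122 CPM in adult injury and 26.1 CPM in adult control endothelium. Sema3d had 6 UMIs in adult injury and 66 UMIs in adult control (-3.01, -4.61 to -1.91).

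In adult injury lymphatic endothelium (34 cells) 4 members were past 2-fold higher and 1 lower, of 12, where 8.03% of all genes were higher and 8.8% lower. Plxnd1 had 339 CPM in adult injury against 70.3 CPM in adult control (2.27, 1.89 to 2.67), Nrp2 857 CPM against 319 CPM (1.43, 1.23 to 1.63) and Sema3d 274 CPM against 642 CPM (-1.23, -1.50 to -0.97). In Plxnd1 1 cell held 40 of 171 UMIs and in Nrp2 1 cell held 102 of 432 UMIs, and the ratios without that cell were 1.88 and 1.04. Sema6d (1.50, 0.77 to 2.24) and Sema4c (1.15, 0.33 to 1.95) had 37 and 27 UMIs in adult injury, and Sema4c was at 0.79 without the cell with most UMIs.

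In adult injury mural cells 6 members were past 2-fold higher and 3 lower, of 18, where 15.7% of all genes were higher and 11.4% lower. Nrp2 had 138 CPM in adult injury against 45.2 CPM in adult control (1.61, 1.30 to 1.93), Plxnb2 132 CPM against 44.4 CPM (1.57, 1.25 to 1.89), Plxna1 82.4 CPM against 30.5 CPM (1.43, 1.05 to 1.83) and Sema4a 28.6 CPM against 11.5 CPM (1.30, 0.67 to 1.99). Sema3f had 4 UMIs in adult injury against 62 UMIs in adult control (-3.73, -5.81 to -2.46). The lower values of Sema3e and Sema3a came from few cells of the adult control: 1 cell held 48 of 69 UMIs of Sema3e and 1 cell 27 of 49 UMIs of Sema3a, and the ratios were 0.00 and -0.47 without that cell, against -1.70 and -1.61 with it. Sema3c (1.28, 1.01 to 1.56) had 155 of its 366 adult injury UMIs in 1 cell and was at 0.49 without it. The stricter gate with at most 1 marker of another class left 2 members past 2-fold, with Plxnb2 at 0.82.

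In neonates the glia could be compared. In neonate injury glia 9 members were past 2-fold higher and 3 lower than in neonate control, of 27, where 6.98% of all genes were higher and 6.27% lower. Sema4f had 51.3 CPM (211 UMIs) in neonate injury against 3.06 CPM (14 UMIs) in neonate control, a log2 ratio of 4.02 (3.29 to 4.96). Sema4a had 30.9 CPM against 6.12 CPM (2.32, 1.74 to 2.98), Plxna1 20.7 CPM against 6.56 CPM (1.64, 1.04 to 2.31) and Plxna2 61.1 CPM against 23.4 CPM (1.38, 1.05 to 1.72). Lower were Sema6a, at 81.3 CPM in neonate injury against 208 CPM in neonate control (-1.36, -1.54 to -1.18), Sema5b (-2.07, -3.36 to -1.08) and Sema3d (-1.24, -1.83 to -0.71). Without the cell with most UMIs Sema3d was at -0.997. Median depth was 4339 UMIs in neonate injury and 10801.5 UMIs in neonate control glia. The glial genes Plxnb3, Sema6d and Sema3b differed by less than 2-fold, with 53.0 CPM, 338 CPM and 209 CPM in neonate injury against 46.8 CPM, 352 CPM and 183 CPM in neonate control.

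Sema4a and Sema4b were higher in several neonate injury classes. Sema4a had 38.5 CPM in neonate injury fibroblasts against 5.74 CPM in neonate control (2.74, 2.45 to 3.05), 28.0 CPM against 4.67 CPM in tenocytes (2.57, 2.14 to 3.06) and 28.9 CPM against 12.3 CPM in mural cells (1.23, 0.70 to 1.77). Macrophages of the neonate injury library had 131 CPM of Sema4a with 15402 CPM of macrophage markers, while neonate injury fibroblasts had 41.1 CPM of these markers; their part in the Sema4a ratio was not tested. Sema4b had 4.74 CPM in neonate injury tenocytes against 1.24 CPM in neonate control (1.88, 1.04 to 2.94).

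In neonate injury tenocytes 7 members were past 2-fold higher and 1 lower, of 25, where 7.96% of all genes were higher and 11.1% lower. Sema3b had 111 CPM in neonate injury against 28.4 CPM in neonate control (1.97, 1.79 to 2.16), and Nrp2 131 CPM against 46.7 CPM (1.49, 1.34 to 1.64). In neonate injury fibroblasts 6 members were past 2-fold higher and 0 lower, of 26, where 7.99% of all genes were higher and 9.08% lower. Plxna1 had 44.9 CPM in neonate injury against 22.0 CPM in neonate control (1.03, 0.85 to 1.20), and Plxnb2 91.4 CPM against 45.6 CPM (1.00, 0.89 to 1.12), at the edge of 2-fold and at 0.84 with Leiden clusters.

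In neonate injury vascular endothelium 2 were past 2-fold higher and 0 lower, of 17, where 6.59% of all genes were higher and 4.37% lower, namely Sema3a (17.4 CPM against 5.14 CPM; 1.71, 0.87 to 2.78) and Plxna1 (15.9 CPM against 6.00 CPM; 1.37, 0.56 to 2.36). In neonate injury mural cells 2 were higher and 2 lower, of 19, where 6.25% of all genes were higher and 4.83% lower. Sema3a had 1 UMI in neonate injury mural cells against 138 UMIs in neonate control (-5.13, -11.03 to -3.21). Of these 138 UMIs 45 were in 1 cell and all were in 24 cells, and the ratio was -4.57 without that cell. With doublets kept it was -1.84.

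The age comparison, adult control against neonate control, had 1 member past 2-fold higher and 8 lower in fibroblasts, of 25, where 11.5% of all genes were higher and 14.6% lower. Sema3e was the 1 that was higher, with 134 CPM in adult control against 36.4 CPM in neonate control (1.88, 1.74 to 2.02). Sema5b had 1 UMI in adult control against 111 UMIs in neonate control (-4.87, -10.77 to -2.94), and Plxna4 1.47 CPM against 11.4 CPM (-2.90, -3.98 to -2.09). Sema6a had 28.6 CPM in adult control against 70.1 CPM in neonate control (-1.29, -1.51 to -1.08), and Nrp2 27.1 CPM against 66.3 CPM (-1.29, -1.51 to -1.07).

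Adult control tenocytes had 4 members past 2-fold higher and 5 lower than neonate control, of 24, where 13.9% of all genes were higher and 14.4% lower. The ligands Sema3d (102 CPM in adult control against 33.2 CPM in neonate control; 1.62, 1.46 to 1.80), Sema3a (339 CPM against 154 CPM; 1.14, 1.06 to 1.22) and Sema3b (58.3 CPM against 28.4 CPM; 1.04, 0.85 to 1.23) were higher, with Nrp2 (127 CPM against 46.7 CPM; 1.44, 1.30 to 1.59). With Leiden clusters Sema3b was at 0.77 and Sema3a at 1.00, while under the gate with at most 1 marker of another class Sema3b was at 2.59, Sema3a at 1.90, Nrp2 at 2.55 and Sema3d at 2.49. Sema6a had 61.1 CPM in adult control against 178 CPM in neonate control (-1.54, -1.64 to -1.44). Plxnc1 (-4.07), Plxna3 (-1.53), Sema6d (-1.49) and Sema3f (-1.11) were the other 4 that were lower, and none of these 4 reached 20 CPM in either library. Sema6d was at -0.47 under that gate and at -0.69 with Leiden clusters, and 1 cell held 40 of its 192 neonate control UMIs.

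In adult control vascular endothelium 6 members were past 2-fold higher and 2 lower than in neonate control, of 17, where 15.6% of all genes were higher and 9.65% lower. Sema3g had 121 CPM in adult control against 18.4 CPM in neonate control (2.70, 2.26 to 3.20), Plxna4 160 CPM against 39.8 CPM (2.00, 1.69 to 2.33), Sema7a 148 CPM against 42.0 CPM (1.81, 1.51 to 2.14) and Sema6b 55.1 CPM against 18.4 CPM (1.57, 1.10 to 2.09). Nrp1 was at the edge of 2-fold, with 812 CPM in adult control against 400 CPM in neonate control (1.02, 0.91 to 1.13). Plxnd1 was lower, at 184 CPM in adult control against 399 CPM in neonate control (-1.11, -1.26 to -0.97). Sema3c, also lower at -1.48, had 18 of its 42 neonate control UMIs in 1 cell and was at -0.69 without that cell and at 0.60 with doublets kept.

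In adult control glia, 65 cells, 7 members were past 2-fold higher and 2 lower than in neonate control, of 20, where 14.3% of all genes were higher and 16.5% lower. Sema3g had 81.1 CPM in adult control against 10.5 CPM in neonate control (2.97, 2.16 to 3.69) and Sema4c 84.6 CPM against 24.5 CPM (1.81, 1.09 to 2.43). Plxnb1 (1.47, 0.49 to 2.25) and Sema6c (1.55, 0.53 to 2.36) had 14 and 13 UMIs in adult control, and Sema6c was at 0.88 without the cell with most UMIs. Sema6a had 2 UMIs, 7.05 CPM, in adult control against 953 UMIs, 208 CPM, in neonate control (-4.56, -7.93 to -3.03). Sema4g had 0 UMIs in adult control against 164 UMIs in neonate control, which with a floor of 3 counts in the adult library is at least 3.39-fold lower.

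In adult control mural cells 4 members were past 2-fold higher and 4 lower than in neonate control, of 20, where 9.98% of all genes were higher and 12.9% lower. Sema5b, the mural gene, had 12.3 CPM in adult control against 45.4 CPM in neonate control (-1.86, -2.47 to -1.34), and Sema6a 5.94 CPM against 31.6 CPM (-2.37, -3.28 to -1.65). Sema7a had 3 UMIs against 47 UMIs (-2.69, -5.23 to -1.27), and Sema3c 62.2 CPM against 168 CPM (-1.43, -1.69 to -1.19), with 0.23 under Leiden clusters. Fibroblast markers summed to 3203 CPM in adult control and 15114 CPM in neonate control mural cells, and their part in the Sema3c ratio was not tested. Of those higher, Sema3e (3.54, 2.70 to 4.61) had 48 of its 69 adult control UMIs in 1 cell and was at 1.85 without it, while Sema4b (1.12, 0.30 to 1.94), Sema3f (1.09, 0.56 to 1.63) and Plxnb1 (1.02, 0.47 to 1.56) had 28 to 62 UMIs in adult control. Without the cell with most UMIs Sema3f was at 0.996 and Plxnb1 at 0.943, no longer past 2-fold.

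Of the other genes of the pathway, 35 were listed, such as collapsin response mediators, Mical enzymes, Rnd and Ras GTPases and co-receptors, and 34 of them could be tested between classes. In glia 11 were higher and 8 lower than in fibroblasts, in vascular endothelium 10 and 10, in mural cells 8 and 5, and in tenocytes 4 and 4. The shares of all genes called higher and lower were 18.4% and 20.2% in glia, 22.8% and 24.3% in vascular endothelium, 11.7% and 11.9% in mural cells and 5.32% and 5.89% in tenocytes, so that several of these counts lie near them. L1cam, a neural adhesion protein that forms a complex with Nrp1, was higher in glia by 6.98 ± 0.63, with Dpysl5 (5.32 ± 0.91), a collapsin response mediator, and Chl1 (4.82 ± 0.69), a close relative of L1cam. Itga1, the collagen-binding integrin subunit, was higher in mural cells by 4.43 ± 0.43 and in vascular endothelium by 3.47 ± 0.41. Rnd1, a GTPase that binds plexins, was 3.03 ± 0.45 higher in vascular endothelium and -2.91 ± 0.72 lower in glia. In tenocytes Dpysl5 was higher by 4.07 ± 0.82, and the kinase Fyn was lower by -1.92 ± 0.24. Between lymphatic and vascular endothelium 5 of the 34 were higher and 3 lower, where 5.72% of all genes were called higher and 8.12% lower. Among these partners were Mical2 (1.99 ± 0.51), an actin-oxidising enzyme, and Itga1 (-2.93 ± 0.48).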

How the data were processed

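Single cells of digested mouse Achilles tendon were profiled in 4 libraries, 1 per group. The deposited values are raw UMI counts per gene and cell, which the authors made with Cell Ranger (8.0.1 in the file headers) on GRCm39 per the submitters' processing notes; other steps are not given in the sources used here. Barcodes needed 500 genes, 1000 UMIs and a mitochondrial share of no more than 15%, and the highest scrublet doublet scores were removed at 0.8% per 1000 barcodes (scanpy 1.11.5). A class needed at least 50% of its own markers, or 6 of 9 for fibroblasts. It also needed under 50% of each other list, with at most 1 tenocyte marker for fibroblasts. The fibroblast list was left out of this rule in every gate, so cells rich in fibroblast markers were not excluded. Lymphatic cells were also free to carry vascular markers. A class sum needed at least 20 cells. Counts were summed per library and class, giving 22 sums, and tested with edgeR 4.0.16 (R 4.3.3), quasi-likelihood with TMM scaling and the library as a block, since the sums of a library come from the same tissue; the threshold was an adjusted p of 0.05. With simulated counts for the glia comparison, 91% of genes changed 4-fold and 48% of those changed 2-fold were recovered among 14991 genes; for 4-fold and 2-fold changes the shares were 87% and 53% in vascular endothelium, 86% and 54% in mural cells, 93% and 71% in tenocytes, and 83% and 28% between lymphatic and vascular endothelium. The changed genes were drawn only from those above a minimum mean level over the sums, so recovery of genes below it was not tested. The simulated means carried no library effect apart from depth and no other class difference, unlike the data. These shares were not split by level, and recovery of genes low in fibroblasts, as many members are, was not tested separately. Alternatives were DESeq2 1.42.0, RLE size factors, no low-count filter, no block, each library left out, other gates, Leiden clusters and doublets kept.

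The members and lists were chosen with earlier results of these data known, and the gate thresholds, the lymphatic comparison, the gate with at most 1 marker of another class and the removal of the top cell were chosen after seeing the data. The text names, per role and direction, up to 4 called members with the largest fold change, and per class and pair of libraries up to 4 with the largest ratio, first those with at least 20 CPM. Intervals are exact at 95% and, like the floor of 3 counts, cover counting error only. Standard errors of the class comparisons were derived as the absolute log2 fold change over the square root of the test's F statistic. Library totals were 71623116 UMIs in adult injury, 68644322 in adult control, 100169054 in neonate injury and 128626912 in neonate control. The summed level of the glial markers is not reported here.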

Additional observations from a re-analysis of the deposited data

Results flagged for a closer look

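In 8 cases a member was past 2-fold in opposite directions in 2 classes or at 2 ages under the same pair of groups; none of these differences was tested, as each group is 1 library. Sema3b in tenocytes had a log2 ratio of injury to control of 1.97 in neonates and -1.08 in adults, a difference of 3.05; with Leiden clusters these were 1.68 and 0.67, both in the same direction. Under injury in adults, Sema3a was at 2.09 in vascular endothelium and -1.86 in tenocytes, a difference of 3.95. Under injury in neonates, Sema3a was at 1.71 in vascular endothelium and -5.13 in mural cells, a difference of 6.84; the mural value rests on 1 UMI against 138 UMIs in 24 cells and was -1.84 with doublets kept. Under injury in neonates, too, Plxna2 was at 1.38 in glia and -1.14 in mural cells, a difference of 2.52.

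Between adult control and neonate control, Plxna4 was at 2.00 in vascular endothelium and -2.90 in fibroblasts, a difference of 4.89, and Sema7a was at 1.81 in vascular endothelium and -2.69 in mural cells, a difference of 4.51. Nrp2 was at 1.44 in tenocytes and -1.29 in fibroblasts, a difference of 2.73, and Sema3f was at 1.09 in mural cells and -1.26 in fibroblasts, a difference of 2.35. The mural value of Sema3f was 0.996, no longer past 2-fold, without the cell with most UMIs.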

How the results depend on the processing

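Of 160 recomputed counts of members 134 stayed within 1.5 times, and of 1334 values of single members 1224 kept their direction and call or moved little, 50 lost the call, 55 moved and 5 reversed. Leaving out each library gave 17 to 21 called members in glia, 22 to 24 in vascular endothelium, 10 to 13 in mural cells, 2 to 5 in tenocytes and 6 to 10 between lymphatic and vascular endothelium. Without the replicate block 6 members were called in mural cells, against 13 with it. The gate with none of another class gave 14 calls in vascular endothelium and, for adult injury there, 1 member past 2-fold; it left too few cells for the other classes. DESeq2 called 22 members in glia, 24 in vascular endothelium, 15 in mural cells, 7 in tenocytes and 11 between lymphatic and vascular endothelium. For settings other than the main one, here and above, the shares of all genes called were not computed. A change in these counts can thus not be told from a change in calls over all genes.

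With a minimum of 1 UMI in place of 50, the members past 2-fold were 15 in vascular endothelium and 17 in mural cells for adult injury, 10 and 12 in these classes for neonate injury, and 18 in glia and 15 in vascular endothelium between the controls. With a minimum of 200 UMIs they were 2 in vascular endothelium, 5 in mural cells and 8 in fibroblasts for adult injury; 5 in glia, 0 in vascular endothelium, 1 in mural cells and 4 in tenocytes for neonate injury; and 3 in glia, 2 in mural cells and 4 in fibroblasts between the controls. The gate with at most 1 marker of another class gave 3 in vascular endothelium, 2 in mural cells and 5 in fibroblasts for adult injury and 4 in mural cells between the controls. Leiden clusters gave 2 in mural cells for neonate injury and 5 between the controls. Fewer UMIs or cells enter under the stricter settings, and the cause was otherwise not tested. The shares of all genes past 2-fold under these settings were not computed, and the numbers of members with enough UMIs are not given. Of 123 ratios past 2-fold, 107 stayed so without the cell with the most UMIs and 16 did not.

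The 5 reversals were Sema3c in vascular endothelium with doublets kept (-0.052 for adult injury and 0.60 between the controls), Sema4a in adult injury tenocytes under the gate with at most 1 marker of another class (-2.27), and, with Leiden clusters, Sema3b in adult injury tenocytes (0.67) and Sema3c in mural cells between the controls (0.23); the cause was not tested. No paired analysis was possible because each group of the library comparisons is 1 library. Adult injury glia, 10 cells, were not compared.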
